A study of Mus musculus with 13 samples.

Results

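The enzymes that write, maintain and remove 5-methylcytosine were described in mouse embryonic fibroblasts depleted of Setdb1, which methylates histone H3 on lysine 9. The members were chosen by gene name. They are the DNA methyltransferases Dnmt1, Dnmt3a, Dnmt3b and Dnmt3l, the Uhrf proteins Uhrf1 and Uhrf2, the Tet dioxygenases Tet1, Tet2 and Tet3, and the thymine DNA glycosylase Tdg. All 10 were among the 25965 genes listed, and 9 passed the filter on low values that 13134 genes passed (at least 1 RPM in at least 3 of 12 libraries, where RPM is a gene's reads scaled to a common library total). The member that did not pass was Dnmt3l, which was not tested.

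Poly(A) RNA was sequenced from fibroblasts of day 13.5 embryos that carried an Xist ΔA allele and an X chromosome named PGK, and that were transduced with a retroviral hairpin and selected with puromycin. The control group held 1 library with a hairpin against luciferase (replicate 1) and 2 with a non-silencing hairpin (replicates A and B). The Setdb1 group held 1 library with shSetdb1.6 (replicate 1) and 2 with shSetdb1.4 (A and B). Each of these 6 libraries has a counterpart with the same hairpin and replicate name from cells given 5-azacytidine (5-aza) for 24 h from day 3 (called a pair here), and all cells were harvested on day 7. By the study's account, cells with Setdb1 hairpins were also heterozygous for a Setdb1 gene trap (Setdb1 +/gt), whereas non-silencing cells were Setdb1 +/+. For luciferase cells no genotype is stated, and none is given for any library in the labels, so the hairpin and the genotype cannot be told apart. The labels do not say that replicates came from separate cultures, so p-values measure the spread between these libraries, which may be technical. A 13th library, given 5-aza and no named hairpin, has PGK in its library name and entered no comparison. Its genotype is not given, and the study used a sample called PGK to define the PGK alleles. That library may therefore differ from the hairpin libraries in strain.

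Methylation of CpG sites is copied after replication by Dnmt1, which Uhrf1 brings to hemimethylated DNA. Dnmt3a and Dnmt3b place methylation on unmethylated sites, and Dnmt3l is a partner without catalytic activity that is known from germ cells and early embryos. Tet enzymes oxidise 5-methylcytosine, and Tdg excises the more oxidised forms for replacement by base excision repair. The drug 5-aza is incorporated into RNA and, after reduction, into DNA, where it traps DNA methyltransferase protein. Transcript levels do not measure that trapping.

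The sites of the hairpins are shown because they define the groups. Each is a 21-base stretch of Setdb1 coding sequence on the minus strand, found by exact match in a coding transcript of Setdb1 and in no transcript of another gene of GENCODE vM21. The site of shSetdb1.4 lies in exon 16 (GRCm38, chr3:95327805-95327825) and that of shSetdb1.6 in exon 5 (chr3:95348003-95348023).
shSetdb1.4: acagatgactttgcagacaaa
shSetdb1.6: aaaagcagttctcaagatcta
Setdb1 itself was at 46.1 to 46.4 RPM in the control libraries and at 12.1 to 15.4 RPM in the Setdb1 hairpin libraries, and with 5-aza at 42.7 to 43.9 RPM and 10.5 to 14.5 RPM. The lowest value without and with 5-aza was that of shSetdb1.6, at 26.1% and 23.8% of its luciferase library, against 32.5% and 32.8% for shSetdb1.4 relative to the non-silencing mean. Each hairpin library had between 36.4 and 51.3 M reads over all listed genes.

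To compare members with each other, RPM was divided by the length of each gene's annotated exons (the union over transcripts, which overstates the length of any single transcript). On this scale, in the control libraries, Dnmt1 was highest at 11.4 ± 0.200 RPM per kb (SD, n = 3). Uhrf2 followed at 8.98 ± 0.231 RPM per kb and Uhrf1 at 8.32 ± 0.515 RPM per kb. A middle group held Tet3 at 2.35 ± 0.172, Tdg at 2.08 ± 0.0193 and Dnmt3a at 1.90 ± 0.0561 RPM per kb. Tet2 was at 0.513 ± 0.0458, Dnmt3b at 0.218 ± 0.00164 and Tet1 at 0.192 ± 0.0147 RPM per kb. Dnmt3l came last at 0.0154 ± 0.00734 RPM per kb. The ranges of neighbours in this order did not overlap, though those of Uhrf2 and Uhrf1 lay close, 8.76 to 9.22 against 7.73 to 8.69 RPM per kb. With the Setdb1 hairpin and no 5-aza the order of the mean levels of these neighbours was the opposite, Uhrf1 at 11.3 ± 1.47 and Uhrf2 at 9.79 ± 0.249 RPM per kb.

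**Figure D1:**
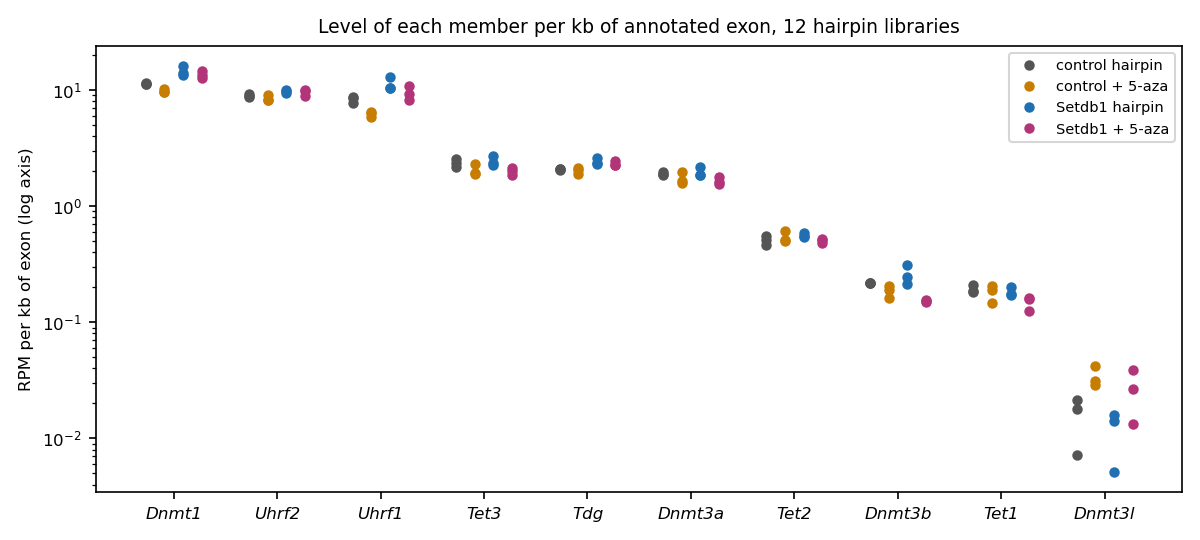
Level of each of the 10 members in RPM per kb of annotated exon (log axis), 1 point per library, coloured by group, ordered by the control mean. The members span from Dnmt1 at 11.4 RPM per kb to Dnmt3l at 0.0154 RPM per kb in the control libraries, and the library of Dnmt3l without a read is drawn at the deposited value of 0.9 read.

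Setdb1 hairpins were accompanied by higher transcript of the maintenance pair, and 5-aza by lower transcript of several members. Without 5-aza, 3 of 9 tested members were higher with the Setdb1 hairpin (Dnmt1, Uhrf1 and Tdg) and 0 were lower, where 9.01% of all genes tested were called higher and 3.4% lower. With 5-aza in both groups, 4 of 9 were higher (the same 3 and Uhrf2) and 0 lower, against 14.5% and 5.37% of all genes. With the control hairpin, 5-aza was accompanied by 2 of 9 members lower (Dnmt1 and Uhrf1) and 0 higher, against 5.34% of all genes lower and 13.5% higher. With the Setdb1 hairpin it was 2 of 9 lower (Dnmt3b and Tet3) and 0 higher, against 7.51% lower and 21.4% higher. Dnmt3b passed the filter mainly through libraries in which it was higher, so its place in this count supports nothing. These calls are limma tests with adjusted p under 0.05. On values centred at each library's median, the split of all calls was 791 higher and 857 lower without 5-aza, 1199 and 1264 with it, 1285 and 1335 for 5-aza with the control hairpin and 1833 and 1673 with the Setdb1 hairpin. On quantile-normalized values it was 797 and 660, 1351 and 1122, 1194 and 1103, and 1887 and 1530 in the same order. In the comparisons without 5-aza and within the control hairpin the same control libraries are used, and likewise for the other pairs of comparisons, so they are not independent.

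**Figure D2:**
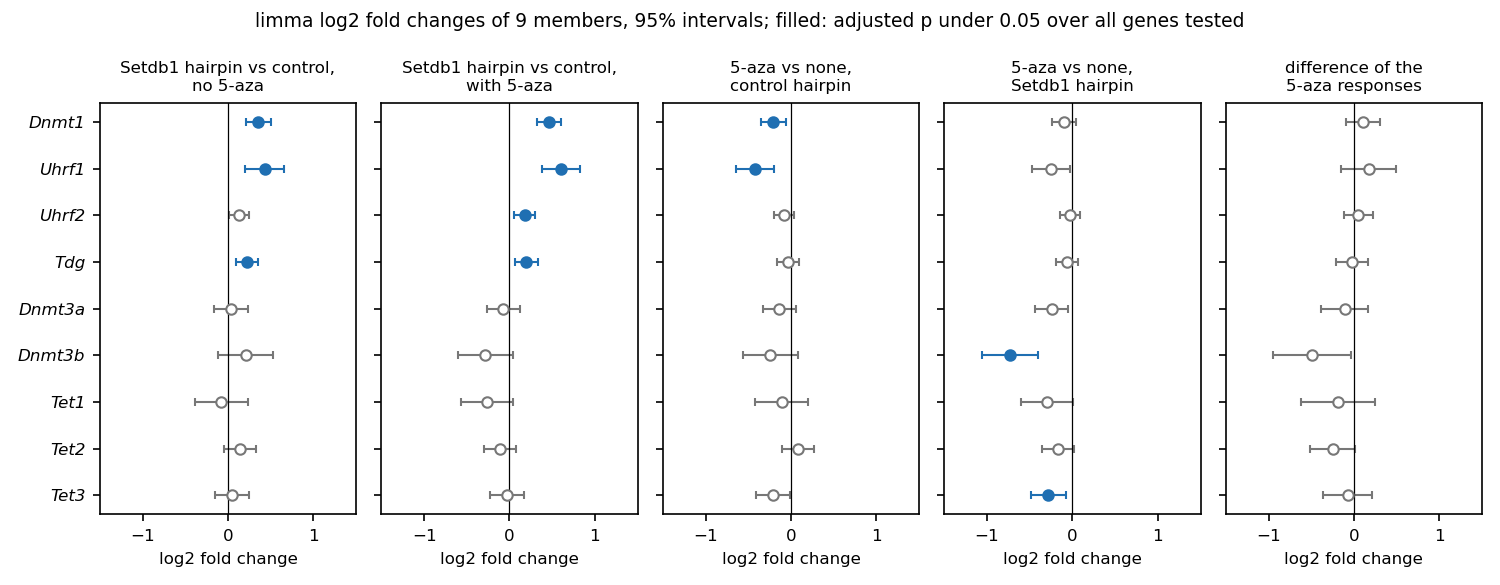
log2 fold changes of the 9 tested members in the 5 comparisons with 95% intervals from limma, filled where the adjusted p over all 13134 genes was under 0.05. Dnmt1 and Uhrf1 lie to the right of 0 in both comparisons of hairpins and to the left in both 5-aza comparisons, and no member is filled in the difference of the 5-aza responses.

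Dnmt1 (ENSMUSG00000004099, GRCm38 chr9:20907206-20959888, minus strand) copies methylation to the new strand. Without 5-aza it was at 82.8, 83.0 and 85.4 RPM with the luciferase hairpin and the non-silencing hairpins A and B, and at 119, 104 and 98.9 RPM with shSetdb1.6 and shSetdb1.4 A and B. The groups did not overlap, and the library with shSetdb1.6 was the highest. This was a log2 difference of 0.36 (SE 0.0656, limma adjusted p 0.00491). With 5-aza the values were 75.6, 71.4 and 71.0 RPM with control hairpins and 108, 94.5 and 98.7 RPM with Setdb1 hairpins, again without overlap (log2 fold change 0.46, SE 0.0656, adjusted p 0.000723). The call stood under each of the 16 alternatives run for either comparison, at 0.27 to 0.41 without 5-aza and 0.40 to 0.50 with it. Against its own control hairpin, without 5-aza, Dnmt1 was at 121% with shSetdb1.4 (2 libraries a side) and at 144% with shSetdb1.6 (1 library a side).

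The response of Dnmt1 to 5-aza was small. With the control hairpin it fell by 0.20 on the log2 scale (SE 0.0656, adjusted p 0.0483), lower in 3 of 3 pairs of libraries and without overlap between the groups. This call was lost without any 1 of the 6 libraries compared, with adjusted p from 0.0565 (without luciferase with 5-aza) to 0.146 (without non-silencing B without 5-aza), and also without the filter on low values (adjusted p 0.0779) and with limma-voom on recovered reads (0.0533). With the Setdb1 hairpin the log2 fold change was -0.10 (adjusted p 0.281, 95% interval -0.24 to 0.05).

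Uhrf1 (ENSMUSG00000001228, chr17:56303321-56323486, plus strand) binds hemimethylated CpG and ubiquitinates histone H3. It showed the largest log2 fold change of the members between hairpins. Without 5-aza it was at 32.9, 37.0 and 36.4 RPM with control hairpins and at 55.2, 44.6 and 44.0 RPM with Setdb1 hairpins. The groups did not overlap, and shSetdb1.6 was the highest and its luciferase control the lowest (log2 fold change 0.43, SE 0.103, adjusted p 0.0194). The call was lost without the luciferase library (0.38, adjusted p 0.0822), without the shSetdb1.6 library (0.32, adjusted p 0.0857) and without both (0.27, adjusted p 0.0678). With 5-aza, values of 27.5, 24.9 and 26.8 RPM with control hairpins compared with 46.3, 35.3 and 39.3 RPM with Setdb1 hairpins, a log2 fold change of 0.60 (SE 0.103, adjusted p 0.00218) that was called under all 16 alternatives. Setdb1 was lowest, and Dnmt1 and Uhrf1 highest, with shSetdb1.6 in both treatments, which is 1 library in each.

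With the control hairpin, 5-aza left Uhrf1 at 74.5% of its mean without the drug, lower in 3 of 3 pairs and without overlap (log2 fold change -0.42, SE 0.103, adjusted p 0.0148). The call was lost without non-silencing A (-0.39, adjusted p 0.0589) or B (-0.40, adjusted p 0.0594) of the libraries without 5-aza. With the Setdb1 hairpin it was at 84.0% of its mean without the drug, lower in 3 of 3 pairs, and not called (-0.25, SE 0.103, adjusted p 0.0849). With the replicate block that pairs these libraries the adjusted p was 0.00608, and without the shSetdb1.6 library with 5-aza the log2 fold change was -0.36 (adjusted p 0.0278). It was also called on median-centred (-0.31, adjusted p 0.0374) and quantile-normalized values (-0.29, adjusted p 0.0461). Part of the Uhrf1 transcript (18.9% of its words of 50 bases) also occurs in 2 pseudogenes, Gm5648 and Gm15953, which are not listed in the table, so reads of these could be split or assigned differently.

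Dnmt1 and Uhrf1 are shown by promoter because they moved together. RefSeq (GRCm38.p6) lists 3 start windows of 300 bases for Dnmt1 and 2 for Uhrf1, from 250 bases before to 50 after a start. They were searched on both strands for the E2F words TTTCCCGC, TTTGGCGC, TTTCGCGC and TTTGCCGC, which are capitalised and did not overlap each other in these windows. In each gene 1 window held at least 1 word, chr9:20952574-20952873 on the minus strand and chr17:56304063-56304362 on the plus strand, and neither is at the gene start listed in the table.
Dnmt1: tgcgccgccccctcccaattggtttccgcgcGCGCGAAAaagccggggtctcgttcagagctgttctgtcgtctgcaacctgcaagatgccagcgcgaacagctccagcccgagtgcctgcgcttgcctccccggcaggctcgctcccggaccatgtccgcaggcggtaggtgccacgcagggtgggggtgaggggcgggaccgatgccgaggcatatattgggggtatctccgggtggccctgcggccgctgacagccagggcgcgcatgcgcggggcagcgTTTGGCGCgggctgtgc
Uhrf1: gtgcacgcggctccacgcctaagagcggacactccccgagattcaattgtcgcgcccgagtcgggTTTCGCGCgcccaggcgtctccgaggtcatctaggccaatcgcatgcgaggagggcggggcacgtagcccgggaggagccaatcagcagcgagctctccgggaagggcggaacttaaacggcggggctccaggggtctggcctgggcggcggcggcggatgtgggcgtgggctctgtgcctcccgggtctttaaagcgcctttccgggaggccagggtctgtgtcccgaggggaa
The Dnmt1 window held 2 words, GCGCGAAA and TTTGGCGC, and the Uhrf1 window 1, TTTCGCGC. Of all windows of this length, 2.26% held a word. Dnmt1 and Uhrf1 were the 2 of 10 members with one in any window, which is 2 of the 17 windows of the members. A match describes letters and is no evidence of a bound factor. Both windows held 33 CpG dinucleotides, against a median of 7 over all windows. This is not particular to them, since 9 of the 17 windows of the members held at least 20, as did 26.5% of all windows. The other windows of Dnmt1 held 12 and 2, and that of Uhrf1 held 12.

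Uhrf2 (chr19:30030513-30093722), the paralogue of Uhrf1, differed less. It was at 75.3 to 79.2 RPM with control hairpins and 81.7 to 85.8 RPM with Setdb1 hairpins, which did not overlap but were not called (log2 fold change 0.13, adjusted p 0.158). With 5-aza it was at 70.1 to 77.2 RPM and 75.6 to 86.7 RPM, which overlapped, and it was called (log2 fold change 0.18, SE 0.0545, adjusted p 0.0400). That call was lost without control hairpin A with 5-aza (adjusted p 0.128), control B (0.124), shSetdb1.6 (0.168) or shSetdb1.4 B (0.141), and under other scalings. No 5-aza response of Uhrf2 was called, at -0.08 (adjusted p 0.307) and -0.03 (adjusted p 0.687) in log2.

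**Figure D3:**
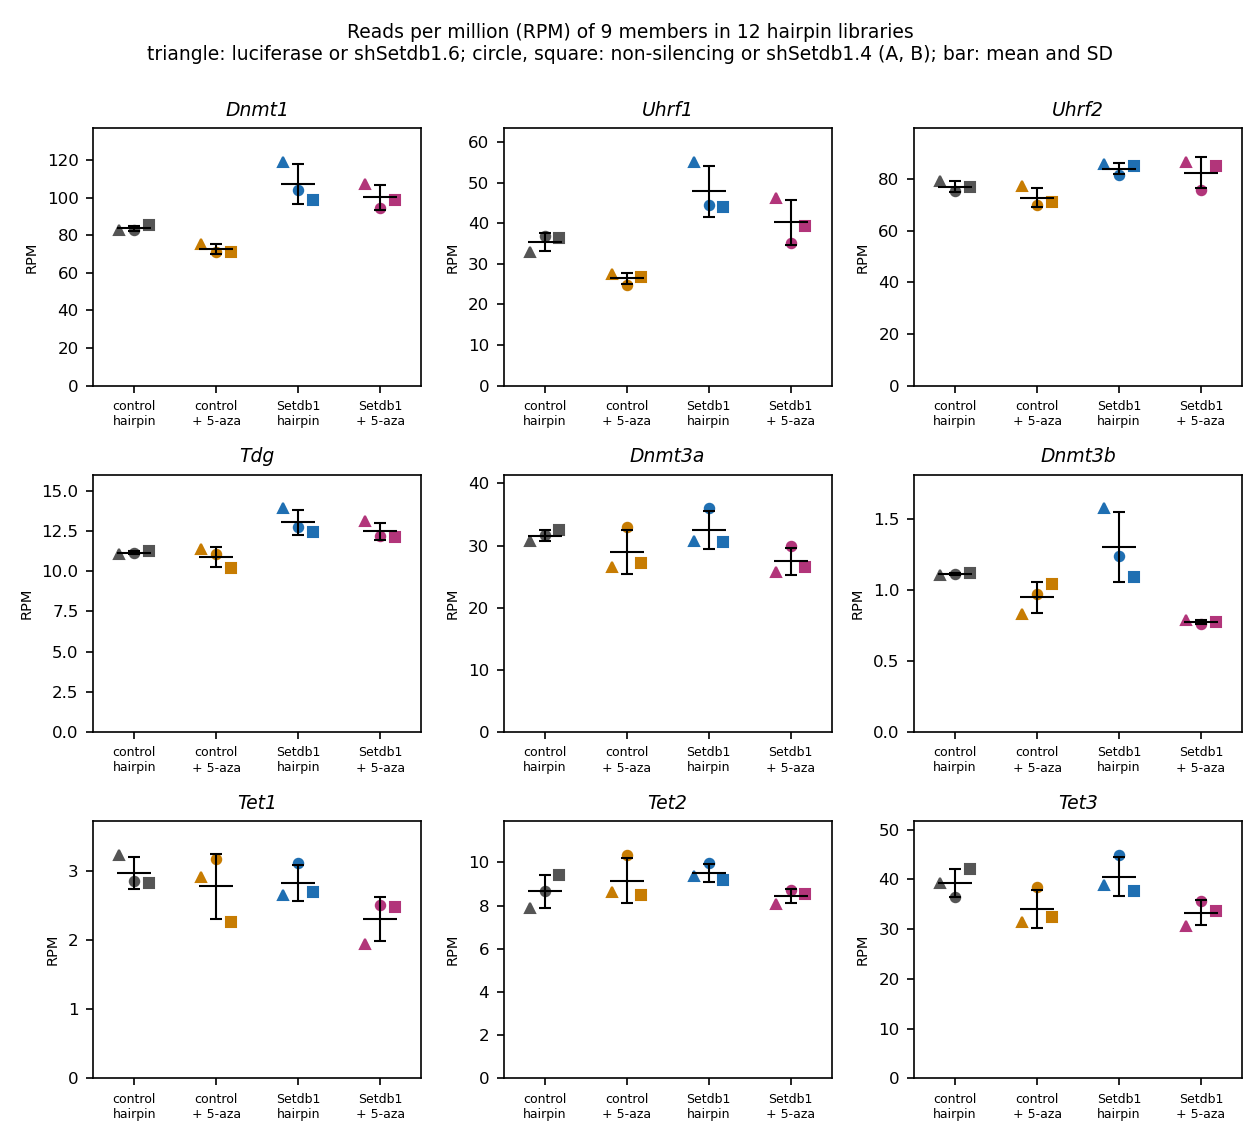
RPM of the 9 tested members in the 12 hairpin libraries (y axes start at 0), with symbols for the hairpin and bars for the mean and SD of 3 libraries. For Dnmt1 and Uhrf1 each Setdb1 hairpin library lies above each control library given the same treatment, and for Dnmt3b the 3 libraries with Setdb1 hairpin and 5-aza lie at 0.760 to 0.786 RPM.

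Of the methyltransferases that place new methylation, Dnmt3a (chr12:3806007-3914443) did not pass the test in any comparison. It was at 30.7 to 32.5 RPM with the control hairpin, 26.5 to 33.0 RPM with control and 5-aza, 30.6 to 36.0 RPM with the Setdb1 hairpin and 25.8 to 29.9 RPM with both. The 5-aza log2 fold change with the Setdb1 hairpin was -0.24 (SE 0.0893, adjusted p 0.0608), lower in 3 of 3 pairs and without overlap between the groups. With the replicate block its adjusted p was 0.00777, and without shSetdb1.4 A with 5-aza it was 0.0329 (-0.31). On median-centred values it was 0.0400 (-0.30) and on quantile-normalized values 0.0496 (-0.29). Between hairpins it differed by 0.04 without 5-aza (95% interval -0.16 to 0.23) and -0.07 with it (95% interval -0.27 to 0.12), in log2.

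Dnmt3b (chr2:153649450-153687730) was 1 of the lowest tested members, and with the Setdb1 hairpin its 5-aza change was the largest among them. It was at 1.11, 1.11 and 1.12 RPM with the control hairpin (52, 63 and 52 reads) and at 1.57, 1.24 and 1.09 RPM with the Setdb1 hairpin (66, 59 and 64 reads). With 5-aza it was at 0.829, 0.969 and 1.04 RPM with the control hairpin and at 0.786, 0.760 and 0.776 RPM with the Setdb1 hairpin (41, 38 and 39 reads). In the Setdb1 hairpin cells 5-aza left 59.5% of the mean, lower in 3 of 3 pairs and without overlap, a log2 fold change of -0.73 (SE 0.149, adjusted p 0.00471) that was called under each of the 15 alternatives that could test it, at -1.04 to -0.37. Dnmt3b reached 1 RPM in 7 of the 12 libraries, among them all 6 without 5-aza and none with both Setdb1 hairpin and 5-aza. It thus passed the filter mainly through libraries in which it was higher, which limits this call. Without the filter its adjusted p was 0.0180, and with at least 5 RPM it was not tested. In control hairpin cells the mean was 85.0% of that without the drug, lower in 3 of 3 pairs and not called (-0.24, adjusted p 0.278). The 5-aza responses differed by -0.49 in log2 (95% interval -0.95 to -0.03, adjusted p 0.794), so the difference between hairpins did not pass the correction. Of its transcript, 11.5% of words of 50 bases also occur in Dnmt3c, a paralogue that is not listed in the table.

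Dnmt3l (chr10:78041947-78063622) was close to the limit of detection. It had 3, 3 and 1 reads with the control hairpin, 6, 4 and 5 with control and 5-aza, 2, 2 and 0 with the Setdb1 hairpin, and 6, 4 and 2 with both. The library without a read allows a level of up to 0.051 RPM (3 reads, counting error only, and PCR copies are not independent molecules). Differences between groups were not tested at this depth.

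Of the Tet dioxygenases, Tet3 was the highest and Tet1 the lowest per kb, and changes were small. Tet3 (chr6:83362373-83441678) was at 38.9, 45.0 and 37.7 RPM with the Setdb1 hairpin and at 30.7, 35.7 and 33.6 RPM with 5-aza added. These did not overlap, and the log2 difference was -0.28 (SE 0.0916, adjusted p 0.0386), lower in 3 of 3 pairs. The call was lost without shSetdb1.6 (adjusted p 0.0581) or shSetdb1.4 A (0.153) of the libraries without 5-aza, and without shSetdb1.6 (0.134) or shSetdb1.4 B (0.0885) of those with it, and without the filter on low values (0.0612). In control hairpin cells Tet3 was at 36.5 to 42.2 RPM and with 5-aza at 31.5 to 38.5 RPM, which overlapped (-0.21, adjusted p 0.135). Without the non-silencing A library with 5-aza it was called (-0.30, adjusted p 0.0368).

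Tet1 (chr10:62804570-62899118) and Tet2 (chr3:133463679-133544390) passed the test in no comparison as fitted. Tet1 was at 2.83 to 3.23 RPM with the control hairpin, 2.25 to 3.16 RPM with control and 5-aza, 2.65 to 3.11 RPM with the Setdb1 hairpin and 1.94 to 2.50 RPM with both. The 5-aza log2 fold change with the Setdb1 hairpin was -0.30 (95% interval -0.60 to 0.01), which was called on quantile-normalized values alone (-0.42, adjusted p 0.0481). Tet2 was at 7.86 to 9.41, 8.47 to 10.4, 9.18 to 9.97 and 8.07 to 8.72 RPM in the same order of groups. Its 5-aza log2 fold change was 0.08 (95% interval -0.11 to 0.27) with the control hairpin and -0.17 (95% interval -0.36 to 0.02) with the Setdb1 hairpin.

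Tdg (chr10:82629828-82650799), the glycosylase that removes oxidised methylcytosine, was higher with the Setdb1 hairpin, by less than Dnmt1 and Uhrf1. It was at 11.1, 11.1 and 11.3 RPM with control hairpins and at 13.9, 12.7 and 12.5 RPM with Setdb1 hairpins, and with 5-aza at 11.4, 11.1 and 10.2 RPM and at 13.1, 12.2 and 12.1 RPM. Neither pair of groups overlapped. The log2 fold changes were 0.22 (SE 0.0600, adjusted p 0.0321) and 0.20 (SE 0.0600, adjusted p 0.0378). The first was lost without any of 5 of its 6 libraries (all but shSetdb1.4 B), with adjusted p 0.0554 to 0.136, and the second without control A (0.0716), control B (0.143), shSetdb1.6 (0.155) or shSetdb1.4 B (0.0708), each with 5-aza. Neither was called on median-centred values (0.17, adjusted p 0.0591, and 0.14, adjusted p 0.103). Of the Tdg transcript, 57.1% of words of 50 bases occur in 4 processed pseudogenes. Of these, Tdg-ps is listed in the table (as Gm5806, 16 to 29 reads per library), so how reads were assigned could change the level of Tdg. Its exons also share 367 bases with Glt8d2 on the other strand, and whether the counting used strand is not given in the sources used here. With 5-aza no change of Tdg was called, at -0.04 (adjusted p 0.706) and -0.06 (adjusted p 0.458) in log2.

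Whether the 5-aza response differed between hairpins was tested directly. Of 9 members 0 were called, against 0.388% of all genes (51, all lower), and 701 of all genes had an unadjusted p under 0.05. Dnmt3b was the 1 member with an unadjusted p under 0.05 (0.0377). Effects called with one hairpin and not with the other are therefore not shown to differ.

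The members fell into patterns of likeness over the 12 libraries, given as Pearson correlations of log2 RPM, which hold the differences between groups as well as those within them. Dnmt1 correlated with Uhrf1 at 0.965, with Tdg at 0.950 and with Uhrf2 at 0.880. Dnmt3a correlated with Tet3 at 0.946, with Tet1 at 0.719 and with Tet2 at 0.716, and with Dnmt1 at 0.0524. Replicate A was the highest library for Dnmt3a, Tet1, Tet2 and Tet3 in every group except the control hairpin without the drug. In that group replicate A was the highest for none of these members. How much of their likeness comes from replicate A was not tested. Among all genes tested, those most like Dnmt1 were Bard1 (0.991), Cit (0.989) and Senp1 (0.987). Those most like Uhrf1 were Melk (0.996 over 12 libraries), Top2a (0.994) and Kif23 (0.993), a mitotic kinase, the DNA topoisomerase of dividing cells and a kinesin of cytokinesis. The closest to Tdg were Cenpl (0.965), Gpr180 and Fignl1, to Uhrf2 Rrp12 (0.982), Prmt3 and Vps54, to Dnmt3a Lphn3 (0.976), Odz3 and Lrig3, and to Tet3 Appl1 (0.955), Dnmt3a and Lphn3. Those most like the low members were less alike, Cmklr1 (0.888), Gjb2 and Clint1 for Dnmt3b, Chrna7 (0.916), Osbp and Fbn2 for Tet1, and C630004H02Rik (0.899), Stt3a and Rcor2 for Tet2.

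Genes of S phase and mitosis moved in the same direction as Dnmt1 and Uhrf1. Of 25 such genes tested, 13 were higher and 0 lower with the Setdb1 hairpin without 5-aza (median log2 fold change 0.35, against 0.03 over all genes). With 5-aza in both groups 23 were higher and 0 lower (median 0.49, against 0.05). Of all genes, 9.01% were higher and 3.4% lower in the first comparison, and 14.5% and 5.37% in the second. With the control hairpin 5-aza was accompanied by 0 higher and 7 lower (median -0.29, against 0.04). With the Setdb1 hairpin 1 was higher (E2f1, log2 fold change 0.35) and 1 lower (Mki67, median of the list -0.14, against 0.06). For these 5-aza comparisons, 13.5% of all genes were higher and 5.34% lower with the control hairpin, and 21.4% and 7.51% with the Setdb1 hairpin. Mki67, a marker of proliferating cells, was at means of 195 RPM with the control hairpin, 125 RPM with control and 5-aza, 262 RPM with the Setdb1 hairpin and 199 RPM with both. The log2 fold changes of Mki67 between hairpins were 0.42 (adjusted p 0.00747) and 0.67 (adjusted p 0.000327). Those of Top2a were 0.45 and 0.61, of Cdk1 0.40 and 0.70, and of Ccnb1 0.47 and 0.79.

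The median level of this list by library was taken as log2 RPM less each gene's mean over 12 libraries. It was -0.15 to -0.03 with the control hairpin, -0.45 to -0.23 with control and 5-aza, 0.17 to 0.46 with the Setdb1 hairpin and -0.05 to 0.30 with both, and it was highest with shSetdb1.6 in both Setdb1 groups. Of the 25 genes, 20 correlated with Uhrf1 above 0.9 over 12 libraries, 19 with Dnmt1 and 4 with Tdg. The least alike of the list was E2f1 each time, at 0.0788 with Uhrf1, 0.254 with Dnmt1 and 0.30 with Tdg. The part of the share of dividing cells in the results on Dnmt1, Uhrf1 and Tdg was not tested, and in bulk RNA more cells of a phase and more RNA per cell cannot be told apart.

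**Figure D4:**
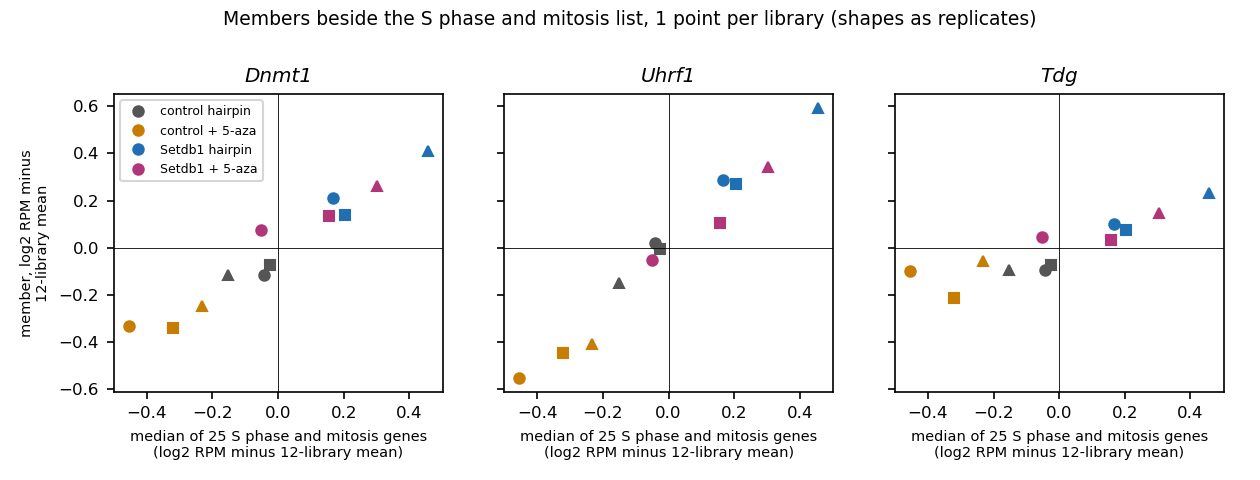
Dnmt1, Uhrf1 and Tdg against the median of 25 S phase and mitosis genes, both as log2 RPM less the mean over 12 libraries, 1 point per library, coloured by group and shaped by replicate (triangle 1, circle A, square B). The 3 control libraries with 5-aza lie lowest on the x axis (-0.45 to -0.23) and the shSetdb1.6 library without 5-aza lies at the upper right (0.46) in each panel.

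The genes around the members were read from lists chosen by function. Of 10 partners and cofactors of the methyltransferases, 4 were higher and 0 lower with the Setdb1 hairpin (median log2 fold change 0.26, against 0.03 over all genes). With 5-aza it was 7 and 0 (median 0.29, against 0.05). The shares of all genes were 9.01% higher and 3.4% lower without 5-aza, and 14.5% and 5.37% with it. Pcna is on this list and also among the 25 genes of S phase and mitosis. Usp7, a deubiquitinase that binds Dnmt1 and Uhrf1, rose by 0.32 and 0.35 (adjusted p 0.000631 and 0.000256). Pcna, the replication clamp, rose by 0.40 and 0.50, Trim28, the corepressor that recruits Setdb1, by 0.19 and 0.24, and Smchd1, a factor of X inactivation, by 0.24 and 0.24. Smchd1 fell by 0.21 with 5-aza with either hairpin (adjusted p 0.00872 and 0.00641). With 5-aza, 2 of the 10 partners were lower and 0 higher with either hairpin. Of all genes, 5.34% were lower and 13.5% higher with the control hairpin, and 7.51% and 21.4% with the Setdb1 hairpin.

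Of 10 readers of methylated CpG, 2 were higher and 1 lower with the Setdb1 hairpin in either treatment, where 9.01% and 14.5% of all genes were higher and 3.4% and 5.37% lower. The median log2 fold change of the list was 0.0058 without 5-aza and 0.0047 with it, below that of all genes (0.03 and 0.05). Mbd1 rose by 0.43 and 0.55 and the zinc finger protein Zbtb38 by 0.45 and 0.54, and Zbtb4 had log2 fold changes of -0.33 and -0.29. Zbtb38 was also higher with 5-aza, by 0.27 with the control hairpin and 0.36 with the Setdb1 hairpin. A further list held CXXC proteins, partners of the Tet enzymes and suppliers of their cofactor. Of its 9 tested genes, 1 was higher with the Setdb1 hairpin without 5-aza, against 9.01% of all genes, and the median of the list was 0.06. This was the CXXC protein Cxxc1 (0.16, adjusted p 0.0352), and the other CXXC proteins of the list were not called. With 5-aza in both groups 2 of the 9 were higher and 0 lower (median -0.02), against 14.5% and 5.37% of all genes. Cxxc1 was among them (0.14, adjusted p 0.0399). Idh2 was lower with 5-aza in Setdb1 hairpin cells (-0.25, adjusted p 0.0366).

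Of 14 tested genes of base excision repair and deamination, 1 was higher and 1 lower with the Setdb1 hairpin without 5-aza (median log2 fold change 0.13), where 9.01% and 3.4% of all genes were higher and lower. In the presence of 5-aza 5 were higher and 0 lower (median 0.09, against 14.5% and 5.37% of all genes), among them Parp1 (0.28) and Neil3 (0.59). With 5-aza 3 and 2 were lower with the control and the Setdb1 hairpin (5.34% and 7.51% of all genes), and both times these held the ligase Lig3 (-0.22 and -0.25) and Gadd45b (-0.31 and -0.27). In the cycle that supplies S-adenosylmethionine, the methyl donor, Ahcy rose by 0.98 (adjusted p 0.000341) and 0.72 with the Setdb1 hairpin. It was the 1 of 10 tested called without 5-aza, near the 9.01% of all genes called higher, and the median of the list was 0.07. With 5-aza in both groups 3 were higher and 0 lower (median 0.08), against 14.5% and 5.37% of all genes. In response to 5-aza 2 were higher and 1 lower with either hairpin. Of all genes, 13.5% were higher and 5.34% lower with the control hairpin, and 21.4% and 7.51% with the Setdb1 hairpin. Of 10 genes of 5-azacytidine uptake and metabolism 9 were tested, and 2 and 5 of them, Cda included, were higher with the Setdb1 hairpin without and with 5-aza (9.01% and 14.5% of all genes). The nucleoside transporter Slc29a1 rose by 0.45 (adjusted p 0.0150) and 0.47 (adjusted p 0.00860) with the Setdb1 hairpin. Cda, the cytidine deaminase that inactivates the drug, was at 0.279 RPM with the control hairpin, 0.561 RPM with control and 5-aza, 0.618 RPM with the Setdb1 hairpin and 2.05 RPM with both. It reached the filter only in the last group, where it was high, so its level is a description and the counts of this list support nothing.

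Of 11 germline genes known to be silenced by promoter methylation, 3 passed the filter, through the groups in which they were high, so their levels are a description with no test. Dazl was at means of 0.0343 RPM with the control hairpin, 1.72 RPM with control and 5-aza, 0.0472 RPM with the Setdb1 hairpin and 3.69 RPM with both. Tex19.1 was at 0.0182, 0.319, 0.247 and 1.84 RPM in the same order. The third, Sycp3, was at 0.640, 0.842, 0.906 and 1.24 RPM, a smaller range.

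The label of fibroblasts was checked on markers. All 10 fibroblast markers were above 1 RPM in every group, and their summed level was 26658 to 32562 RPM with the control hairpin, 24020 to 36185 RPM with control and 5-aza, 29335 to 37328 RPM with the Setdb1 hairpin and 23585 to 30502 RPM with both. With 5-aza in Setdb1 hairpin cells Col1a1 (-0.73, adjusted p 0.0337) and Pdgfrb (-0.72, adjusted p 0.0146) were lower and Vim (0.20, adjusted p 0.0152) higher, and between hairpins with 5-aza Thy1 was lower (-0.46, adjusted p 0.0277). Of 7 pluripotency markers Pou5f1, Zfp42, Tdgf1 and Lin28a had 0 reads in every hairpin library. Nanog was at means of 0.277, 0.275, 0.318 and 0.171 RPM in the same order of groups, with up to 24 reads in a library. Esrrb had up to 6 reads and Dppa4 up to 3. Dnmt3b, Dnmt3l and Tet1 are known to be abundant in pluripotent cells. Of 9 macrophage markers the summed level was 10.5 to 11.3 RPM with the control hairpin, 12.7 to 14.8 RPM with control and 5-aza, 10.4 to 11.2 RPM with the Setdb1 hairpin and 13.6 to 14.5 RPM with both. Most of it was Csf1r, at means of 7.53, 9.07, 7.67 and 9.35 RPM in that order, while Emr1 had no read with the Setdb1 hairpin. Of 5 endothelial markers it was 7.05 to 8.20, 4.22 to 6.28, 6.19 to 6.68 and 4.44 to 5.97 RPM in that order of groups. Of 5 epithelial markers it was 25.8 to 29.2, 38.1 to 50.9, 31.3 to 46.5 and 61.5 to 74.4 RPM, carried mostly by Krt19 and then Krt18. Krt8 had means of at most 2.30 RPM, and Epcam and Cdh1 stayed at means of at most 0.0775 and 0.0722 RPM in any group. The part of these marker levels in the results on the members was not tested.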

How the data were processed

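Per the labels and the study's methods, poly(A) RNA of 13 libraries was sequenced as single-end reads of 100 bases. The authors deposited 1 table of log2 RPM per gene and library. Its aligner, annotation and counting are not given in the sources used here, and the submitters' processing notes name mm10 and CASAVA 1.4. From the steps of the deposited log2 values, 100% of values in each library came out as whole reads (within 0.01 read), with 0.9 read standing for no read, so reads were recovered. Total depth worked out from these steps was between 41.9 and 58.8 M reads per hairpin library.

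Genes reaching 1 RPM in 3 or more of the 12 hairpin libraries were tested on log2 RPM, with no pseudocount added beyond that of the table, in 1 limma 3.58.1 fit (R 4.3.3, lmFit and eBayes with trend) with the group as the term. Tests were two-sided, adjusted by Benjamini-Hochberg over 13134 genes, and called at an adjusted p under 0.05. The fit was tested on simulated data. Libraries without and with 5-aza were checked for pairing by the correlation of their deviations from the group means, which was 0.472, 0.634 and 0.413 with the Setdb1 hairpin, so a replicate block is given there. Positions are GRCm38, 1-based, 96.4% of gene identifiers were found in GENCODE vM21, and promoters are RefSeq windows.

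The genes named are the 10 members, Setdb1, up to 4 genes per list with the smallest adjusted p among those called, and the 3 genes most like each tested member, except for 1 list gene that is not reported here. E2f1, Sycp3, Nanog, Esrrb, Dppa4, and markers at 0 or carrying a marker sum, were named after their values were seen. The members and lists were chosen with earlier results of these data known. Alternatives were other filters, scalings, fits and replicates left out. Limma-voom on recovered reads was added after the data were seen. Python 3.11.15, pandas 2.3.3 and matplotlib 3.10.9 were used.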

Additional observations from a re-analysis of the deposited data

Results flagged for a closer look

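The library given 5-aza without a named hairpin has PGK in its library name and entered no comparison. Its genotype is not given, so a difference of strain from the hairpin libraries and the lack of a hairpin cannot be told apart. This library held 17.4 M reads in listed genes, fewer than any other library, and Setdb1 at 47.0 RPM. Listed are the members that were above all 3 control hairpin libraries with 5-aza there. How many of all genes were above them was not counted, so this is not shown to be a trait of the members. Dnmt1 was at 89.97 RPM against 71.0 to 75.6, Uhrf1 at 41.1 against 24.9 to 27.5, and Tdg at 11.9 against 10.2 to 11.4. Dnmt3a was at 41.6 RPM against 26.5 to 33.0 and Dnmt3b at 1.37 against 0.829 to 1.04. Tet1 was at 4.07 RPM against 2.25 to 3.16, Tet2 at 15.01 against 8.47 to 10.4, and Tet3 at 45.4 against 31.5 to 38.5. Dnmt3a, Tet1, Tet2 and Tet3 were also above all 12 hairpin libraries, and Uhrf2 at 65.6 RPM was below all of them. This is 1 library without a replicate, and no test was made. No group of 3 was tested for a single sample far from the others, and no member's 5-aza response differed between hairpins by the test.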

How the results depend on the processing

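Over the members, 755 values were recomputed under alternatives. Of these, 678 kept their direction and side of the threshold, 47 were no longer called, 11 became called and 19 changed sign, none of them called before or after. The members called numbered 3, 4, 2, 2 and 0 in the order hairpins without 5-aza, hairpins with it, 5-aza in control cells, 5-aza in Setdb1 hairpin cells and the difference of responses. Of all genes, 1630, 2609, 2471, 3792 and 51 were called.

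With replicates A and B only, 1 hairpin per target, 470, 1403, 1532, 2306 and 8 genes were called, and 1 and 2 members between hairpins. With only the groups compared in the fit, 1548 genes and 2 members were called between hairpins with 5-aza. Without the filter, 2 members were called between hairpins with 5-aza, 1 with 5-aza in control cells and 1 in Setdb1 hairpin cells. With at least 5 RPM, where Tet1 and Dnmt3b were not tested, 1 member was called with 5-aza in Setdb1 hairpin cells, and 19 genes in the difference. Median centring gave 2 members between hairpins with 5-aza and 4 with 5-aza in Setdb1 hairpin cells, and quantile normalization 2 and 5. Median centring also moved the split of calls between hairpins without 5-aza from 1183 higher and 447 lower to 791 and 857, with 5-aza from 1904 and 705 to 1199 and 1264, in control cells from 1769 and 702 to 1285 and 1335, and in Setdb1 hairpin cells from 2805 and 987 to 1833 and 1673. Limma-voom, chosen after the data were seen, called 1 member with 5-aza in control cells. The planned count test was not run on the table of log values, and limma-voom on the recovered reads took its place.

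With the replicate block of libraries without and with 5-aza, 4 members were called in Setdb1 hairpin cells, 3902 genes in control cells and 169 in the difference, and no other member's call changed. In control cells the pairs correlated at 0.586, 0.149 and 0.0999, 1 of them under 0.1, and the block left Dnmt1 (adjusted p 0.00457) and Uhrf1 (0.000457) as the members called there. Between the 2 kinds of hairpin, libraries of letter A correlated at 0.190 without 5-aza and 0.686 with it. Those of letter B correlated at -0.470 and -0.0197. The letters thus gave no likeness that held in both treatments, though A with 5-aza was alike, and whether a letter marks a shared batch is not in the labels. The block by letter left Tdg not called between hairpins (adjusted p 0.0512 and 0.0520). Leaving out 1 replicate gave 721 to 1443, 1279 to 3428, 1260 to 2451, 2191 to 3670 and 29 to 43 genes, and 1 to 3, 2 to 4, 0 to 2, 1 to 3 and 0 members. The causes were not tested.

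Among uncalled members, between hairpins without 5-aza, median centring gave log2 fold changes of -0.0136 for Dnmt3a and -0.0054 for Tet3, and Tet1 was at 0.0282 with replicates A and B only and 0.0556 with the replicate block by letter. In the difference of responses Tdg was at 0.0259 with A and B only. The other changes of sign came from leaving out 1 library. Between hairpins without 5-aza this gave -0.0416 to 0.0755 for Dnmt3a and -0.0341 to 0.0961 for Tet3, and with 5-aza -0.135 to 0.0278 and -0.0865 to 0.0587. For 5-aza in control cells it gave -0.212 to 0.0332 for Tet1, -0.0126 to 0.141 for Tet2 and -0.0701 to 0.00879 for Tdg, and in Setdb1 hairpin cells -0.0689 to 0.0299 for Uhrf2. In the difference it gave -0.130 to 0.0155 for Tet3 and -0.0702 to 0.0234 for Tdg.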
